A study of Mus musculus with 9 samples.

Results

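The genes described here are the expressed zinc finger protein genes of the 8-cell mouse embryo, taken as every listed entry whose symbol is Zfp followed by a number and which averaged at least 5 FPKM across the 9 libraries. FPKM (fragments per kilobase of gene, divided by the library's fragments) is a level scaled for gene length and library size. Of 376 such Zfp entries among 55335 listed, 119 met the rule and are called members. *Zfp42*, *Zfp57* and *Zfp352* were left out by name. Because members were selected on their FPKM, the levels themselves are a description, and a gene that was high in 1 group alone could enter through that group. The lowest members were *Zfp125*, *Zfp579* and *Zfp317*, with means of 5.21, 5.08 and 5.04 FPKM, and the nearest genes outside were *Zfp653*, *Zfp35* and *Zfp513*, with means of 4.99, 4.91 and 4.89 FPKM.

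Embryos came from ICR mice and were microinjected with siRNA as zygotes. Controls got nontargeting siRNA, the MFN1-KD group siRNA against *Mfn1*, whose protein fuses mitochondria, and the H3.3-KD group siRNA against *H3f3a* and *H3f3b*, which both encode histone H3.3. Each group had 3 libraries, each made from a pool of 8-cell embryos (5 to 10 by the labels), and no source states which libraries came from separate days or mothers, so p-values measure the spread between these pools. In pools, fewer cells with a transcript and less transcript per cell cannot be told apart. siRNA lowers a transcript without deleting the gene, and its remaining level was measured. *H3f3a* was at 1594, 2092 and 2110.3 FPKM in the 3 control libraries and at 169.7, 117 and 161 in H3.3-KD, and *H3f3b* at 2903, 2895 and 3166 and at 311, 171 and 257. *Mfn1* was at 51.6, 22.6 and 23.8 FPKM in control and at 9.54, 4.40 and 1.15 in MFN1-KD. None of the 3 targeted genes overlapped between its knockdown and control.

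Library quality was uneven. Genes above 0 FPKM numbered 15577 to 20842 in MFN1-KD, with replicate 3 the lowest, 21643 to 22507 in control and 23655 to 24820 in H3.3-KD. The summed level of 8 genes known from 8-cell embryos, of which *Dppa5a* gave most, was 10576 to 14266 FPKM in control, 4361 to 6587 in H3.3-KD and 10706 to 14811 in MFN1-KD, and *Pou5f1* among them was at 7.73, 8.90 and 5.10 FPKM in control and 330.3, 392 and 63.1 in H3.3-KD. The sum of 5 genes of 2-cell genome activation was 215 to 479 FPKM in H3.3-KD against 17.8 to 23.5 in control and 8.19 to 54.9 in MFN1-KD. *Tdpoz4* gave nearly all of it in H3.3-KD, whereas *Tcstv1* gave most in the highest MFN1-KD library. The sum of 9 cumulus cell markers was 38.6 to 66.4 FPKM in H3.3-KD, 16.1 to 30.0 in control and 10.6 to 19.4 in MFN1-KD, with 4, 6 and 6 of the 9 at 0 in every library of the group. *Amhr2* gave nearly all of this sum, and each of the other 8 was under 1 FPKM in every library. The 4 sperm markers summed to under 3 FPKM in every library, and 7 genes of stored oocyte RNA summed to 24.4 to 49.5 FPKM over the 9 libraries. The part that these differences have in the members' changes was not tested.

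Most Zfp genes encode proteins with C2H2 zinc fingers, small folds that hold a zinc ion with a pair of cysteines and a pair of histidines and read DNA when strung together. The largest class also carries a KRAB box, which recruits TRIM28 and with it SETDB1, HP1 proteins and histone deacetylases, so that the bound DNA, often a retrotransposon, is silenced. KRAB genes multiplied by tandem duplication and stand in clusters of near copies, and several of them guard imprinted loci and endogenous retroviruses during the reprogramming of the early embryo. Other Zfp genes share only the name and encode RNA-binding proteins, ribosome assembly factors or ubiquitin ligases.

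By patterns searched in the translated coding sequences of GENCODE M21, 61 of the 119 members had a KRAB box. They carried 3 to 23 fingers with a median of 12. Another 37 members had at least 4 fingers and no KRAB pattern, 18 had fewer than 4 fingers, and 3 (*Zfp125*, *Zfp640* and *Zfp939*) had no coding transcript and are annotated as pseudogenes. The KRAB transcripts were poor in GC, with a median of 39.5% against 48.8% in the members with at least 4 fingers and no KRAB pattern and 49.8% in those with fewer than 4. Of the 119 members, 58 had another member starting within 500 kb. The largest such cluster held 13 genes, all of the KRAB class, at chr4:145510759-147809788 (GRCm38), and the next held 11 KRAB genes at chr17:21008903-22377281. These members include near copies that can trade reads. Of 119 members, 76 had no stretch of 100 bases in common with a transcript of another gene, 95 had under 5% of such stretches in common and 8 had at least 50%. *Zfp967* and *Zfp969* shared all of theirs, so the levels of this pair are uncertain.

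The promoters of the chromosome 4 cluster were themselves copies. RefSeq promoters (GRCm38.p6, 250 bases before to 50 after the start) were listed for 100 of the 119 members and for 10 of the 13 cluster genes. The longest word found in 9 of the 10 listed first for each gene had 15 letters, TGGGAAGCTAATTAA. Among all 32851 promoters of the table it was found, searching both strands, in 12 (0.0365%), which belonged to 12 genes on chromosome 4. Of these, 10 were members of the cluster, *Zfp982* through another of its listed starts, and the other two were *Rex2* and *Gm13212*. The promoters of *Zfp985*, *Zfp534* and *Zfp600* are shown because these genes fell in H3.3-KD. Capitals mark the shared word.
Zfp985, chr4:147553027-147553326, plus strand: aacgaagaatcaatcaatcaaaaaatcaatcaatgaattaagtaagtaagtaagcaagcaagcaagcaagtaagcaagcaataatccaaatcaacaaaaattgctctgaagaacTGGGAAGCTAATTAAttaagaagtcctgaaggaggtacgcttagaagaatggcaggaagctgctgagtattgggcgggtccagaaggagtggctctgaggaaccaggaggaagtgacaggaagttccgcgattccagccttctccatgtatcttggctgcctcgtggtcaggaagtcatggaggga
Zfp534, chr4:147702582-147702881, minus strand: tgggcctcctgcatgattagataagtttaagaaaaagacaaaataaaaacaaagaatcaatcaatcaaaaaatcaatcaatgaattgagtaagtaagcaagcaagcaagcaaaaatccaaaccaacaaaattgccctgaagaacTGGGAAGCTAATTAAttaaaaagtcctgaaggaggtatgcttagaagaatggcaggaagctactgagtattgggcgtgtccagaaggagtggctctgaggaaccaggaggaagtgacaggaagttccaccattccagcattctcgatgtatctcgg
Zfp600, chr4:146156577-146156876, plus strand: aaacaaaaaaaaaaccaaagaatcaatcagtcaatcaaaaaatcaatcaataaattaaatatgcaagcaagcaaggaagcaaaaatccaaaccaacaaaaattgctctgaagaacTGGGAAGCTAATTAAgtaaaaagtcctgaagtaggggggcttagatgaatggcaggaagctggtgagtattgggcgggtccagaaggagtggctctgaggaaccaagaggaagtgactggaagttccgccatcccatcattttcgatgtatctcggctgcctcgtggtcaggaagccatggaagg

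These promoters held few CG dinucleotides. The 10 cluster promoters had a median of 4.5 CG, the other 40 KRAB promoters 10.5, and the 50 promoters of members outside the KRAB class 19.0, against 7.0 over all promoters in the table, of which 94.6% held at least 1 CG. *Zfp775* and *Zfp771* are shown as promoters of members that rose in H3.3-KD. They held 24 and 25 CG dinucleotides, marked in capitals.
Zfp775, chr6:48601757-48602056, plus strand: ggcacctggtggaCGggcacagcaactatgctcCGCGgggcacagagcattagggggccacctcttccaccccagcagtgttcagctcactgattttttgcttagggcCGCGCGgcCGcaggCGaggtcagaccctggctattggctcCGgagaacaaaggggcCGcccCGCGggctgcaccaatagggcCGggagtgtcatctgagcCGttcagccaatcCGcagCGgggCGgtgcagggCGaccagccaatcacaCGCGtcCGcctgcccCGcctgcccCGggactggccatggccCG
Zfp771, chr7:127244276-127244575, plus strand: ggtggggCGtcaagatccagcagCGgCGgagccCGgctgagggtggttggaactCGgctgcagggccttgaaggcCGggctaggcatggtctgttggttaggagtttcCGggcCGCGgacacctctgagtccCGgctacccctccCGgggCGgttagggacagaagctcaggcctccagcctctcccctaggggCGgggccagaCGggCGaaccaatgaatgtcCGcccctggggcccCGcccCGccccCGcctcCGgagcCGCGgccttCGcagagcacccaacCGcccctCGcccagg
A shared word or a CG count describes these letters and does not show that a factor binds there.

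Members were mostly expressed at low levels. Their mean over the 9 libraries had a median of 12.8 FPKM, with 46 members at 5 to under 10, 56 at 10 to under 50, 8 at 50 to under 100 and 9 at 100 FPKM or more. Together they made up 0.335% to 0.559% of the summed FPKM of a library. A mean of at least 5 FPKM was reached in control by 98 members, in H3.3-KD by 110, in MFN1-KD by 103, and by 89 in all 3 groups. 10 members reached it in H3.3-KD alone, 6 in MFN1-KD alone and 0 in control alone. All but 4 members were above 0 FPKM in all 9 libraries.

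The most abundant member was *Zfp706*, a small protein with 1 finger that was linked to exit from pluripotency in embryonic stem cells. It was at 1346, 1639 and 1715 FPKM in control, 1914, 1722 and 1358 in MFN1-KD and 1579, 1388 and 1316 in H3.3-KD. These ranges overlapped, and neither knockdown passed the test (adjusted p = 0.835 and 0.627). After it in control came *Zfp131*, *Zfp960*, *Zfp932*, *Zfp622*, *Zfp985*, *Zfp207* and *Zfp936*, with control means from 102 to 223 FPKM. The control libraries of *Zfp131* lay above those of *Zfp960*, and from *Zfp960* down each gene overlapped with its neighbour in that order. 4 of these 8 most abundant members were of the KRAB class.

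In H3.3-KD against control, 25 members rose and 15 fell at a Benjamini-Hochberg adjusted p under 0.05 in limma, fitted to log2(FPKM + 1) of all 13011 genes that averaged at least 1 FPKM. Over all genes tested, 21.8% rose and 9.12% fell, so the members' shares of 21.0% and 12.6% were near the background. By class, of the 61 KRAB members 4 rose and 10 fell, and of the 58 others 21 rose and 5 fell, with median log2 fold changes of -0.27 and 0.63 beside 0.26 over all genes. At an unadjusted p under 0.05 with a change of more than 2-fold, the study's own threshold, 27 members rose and 18 fell, against 23.9% and 9.39% of all genes. The 3 H3.3-KD libraries lay wholly above the control libraries for 34 members and wholly below for 23, against 34.5% and 18.9% of all genes.

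The split between rises and falls depended on scaling. Scaling the libraries by median ratios moved the median of all genes from 0.26 to -0.00 and gave 19 rises and 21 falls among the members, and upper-quartile scaling gave 17 and 23. Removing each library's trend over transcript GC content and length gave 14 and 12. The counts over all genes moved as well. Under median ratios 2074 of 13011 genes rose and 1777 fell. With the GC and length trend removed, 1426 of 12770 rose and 1495 fell. The falls also depended on single libraries and numbered 8 without control replicate 1, control replicate 3 or H3.3-KD replicate 3, and 9 without control replicate 2. Members that met the rule through a knockdown had to lie above control there. Among the 21 members with a control mean under 5 FPKM 12 rose and 1 fell, and 11 of these rises were outside the KRAB class. Among the 98 with at least 5 FPKM in control 13 rose and 14 fell.

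The KRAB members had fewer rises and more falls than the others in each version run. There were 4 rises and 14 falls for KRAB members against 15 and 7 for the others under median ratios, and 2 and 8 against 12 and 4 with the GC and length trend removed. Over the 98 members with at least 5 FPKM in control, 3 of 56 KRAB members rose and 10 fell, and 10 of 42 others rose and 4 fell. Over the 52 members with at least 15 FPKM in MFN1-KD, a level that meets the rule whatever control and H3.3-KD hold, 2 of 31 KRAB members rose and 9 fell, and 4 of 21 others rose and 3 fell. These splits by level were chosen after the values were seen. In the fit reported the KRAB falls lay mostly in 1 cluster, and class went with GC content, as described further on.

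The 8 largest rises in H3.3-KD belonged to genes outside the KRAB class. For *Zfp574*, *Zfp219*, *Zfp771*, *Zfp428* and *Zfp710*, with control means of 2.94, 0.813, 2.53, 1.26 and 3.51 FPKM, a rise was built into the choice of members, since they reached 5 FPKM through H3.3-KD, and their values are a description. *Zfp574* was at 4.03, 2.40 and 2.39 FPKM in control and 28.4, 37.1 and 66.3 in H3.3-KD (log2 fold change 3.45 ± 0.37 (SE), adjusted p = 0.000205). *Zfp219*, whose human counterpart is a transcription factor that works with SOX9 in cartilage, was at 1.06, 0.69 and 0.69 FPKM in control and 19.1, 22.7 and 8.34 in H3.3-KD (log2 fold change 3.19 ± 0.41 (SE), adjusted p = 0.000453). In both genes the lowest H3.3-KD library was above the highest control library by a wide margin, although H3.3-KD replicate 3 was the highest of its group for *Zfp574* and the lowest for *Zfp219*. *Zfp775* was at 16.1, 13.4 and 9.29 FPKM in control and 78.3, 87.6 and 177 in H3.3-KD (log2 fold change 2.98 ± 0.40 (SE), adjusted p = 0.000556). *Zfp771*, an 8-finger protein, was at 2.77, 3.09 and 1.73 and 18.4, 15.1 and 28.8 FPKM (log2 fold change 2.59 ± 0.36 (SE), adjusted p = 0.000609). Removal of the GC and length trend left *Zfp771* at a log2 fold change of 0.91, which no longer passed (adjusted p = 0.0635), and left *Zfp775* at 1.88.

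*Zfp36* encodes tristetraprolin, which binds AU-rich elements of messenger RNA and speeds their decay, and its fingers are of the CCCH type rather than C2H2. It was at 7.17, 3.58 and 5.81 FPKM in control and 30.7, 31.1 and 47.3 in H3.3-KD (log2 fold change 2.53 ± 0.33 (SE), adjusted p = 0.000472), without overlap. *Zfp428*, *Zfp710* and *Zfp821* complete the 8. *Zfp428* was at 1.77, 1.36 and 0.66 FPKM in control and 12.1, 12.8 and 18.8 in H3.3-KD (log2 fold change 2.79 ± 0.34 (SE), adjusted p = 0.000336), while 2 of its 3 MFN1-KD libraries were listed at 0. *Zfp710* rose from 4.57, 3.00 and 2.97 to 25.7, 24.5 and 36.2 FPKM (log2 fold change 2.72 ± 0.31 (SE), adjusted p = 0.000247). *Zfp821* was at 17.1, 13.3 and 16.7 in control and 44.5, 75.1 and 174 in H3.3-KD (log2 fold change 2.35 ± 0.47 (SE), adjusted p = 0.00447), the most scattered of the 8, and it no longer passed with the GC and length trend removed (log2 fold change 1.28, adjusted p = 0.107). The other 6 of the 8 passed there too.

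**Figure D1:**
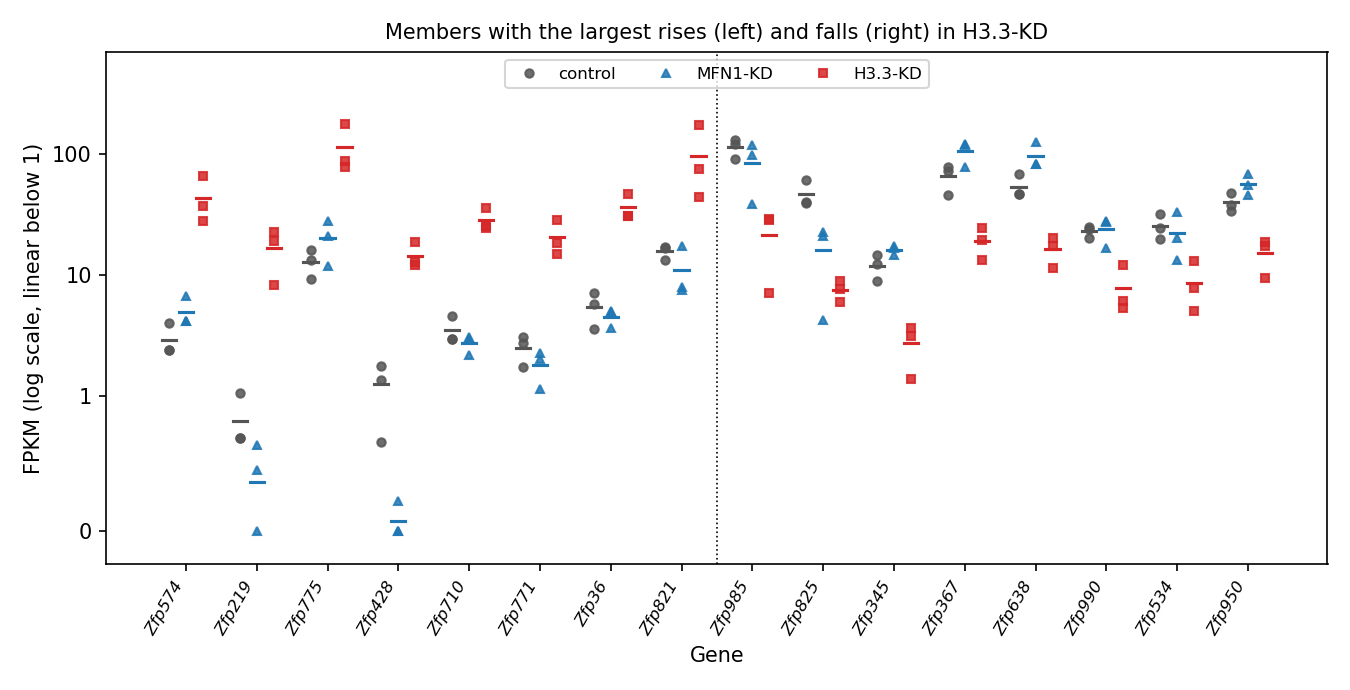
FPKM of 16 members in each library (y axis, log scale, linear below 1), with the 8 largest rises in H3.3-KD left of the dotted line and the 8 largest falls right of it. Each mark is 1 library and each short bar the mean of 3. For all 16 genes the H3.3-KD marks (squares) lie wholly above or wholly below the control marks (circles).

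The 8 largest falls included 5 KRAB genes. *Zfp985*, from the chromosome 4 cluster, was at 121, 92.1 and 131 FPKM in control and 28.6, 29.4 and 7.10 in H3.3-KD (log2 fold change -2.56 ± 0.54 (SE), adjusted p = 0.00576). *Zfp825* was at 39.3, 40.3 and 60.9 and 7.75, 8.92 and 6.07 FPKM (log2 fold change -2.46 ± 0.52 (SE), adjusted p = 0.00554), and *Zfp345*, on chromosome 2, was at 14.6, 12.4 and 8.98 and 3.70, 3.16 and 1.40 FPKM (log2 fold change -1.82 ± 0.34 (SE), adjusted p = 0.00301). Neither group overlapped in any of the 3, and all 3 kept their calls with the GC and length trend removed and under median ratios. The KRAB genes *Zfp990* and *Zfp534* also stand in the chromosome 4 cluster and are given with it.

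*Zfp367* and *Zfp638* were the largest falls outside the KRAB class. *Zfp367*, a transcription factor with 2 fingers, was at 72.3, 46.0 and 79.3 FPKM in control and 19.5, 13.4 and 24.4 in H3.3-KD (log2 fold change -1.73 ± 0.31 (SE), adjusted p = 0.00257). *Zfp638*, a nuclear RNA- and DNA-binding protein known from splicing and from the silencing of retroviral DNA, was at 68.6, 46.6 and 47.2 and 11.6, 17.3 and 20.4 FPKM (log2 fold change -1.67 ± 0.30 (SE), adjusted p = 0.00233). It had the smallest p among the members that fell, and both genes were higher in MFN1-KD than in any H3.3-KD library, at 78.5, 122 and 119 and 82.5, 83.3 and 126 FPKM. *Zfp950*, with 17 fingers and no KRAB pattern, was at 34.0, 48.1 and 38.3 FPKM in control and 18.9, 9.54 and 17.6 in H3.3-KD (log2 fold change -1.37 ± 0.31 (SE), adjusted p = 0.0074), and did not pass with the GC and length trend removed (log2 fold change -1.16, adjusted p = 0.0528).

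In the fit reported, the chromosome 4 cluster accounted for most KRAB falls. Of its 13 genes 7 fell in H3.3-KD and 0 rose (8 and 0 in limma at an unadjusted p under 0.05), against 9.12% and 21.8% of all genes tested. All 13 log2 fold changes were below 0, with a median of -1.22, beside 0.26 over all genes tested. In the other 48 KRAB members 3 (6.25%) fell and 4 (8.33%) rose, both below the shares of all genes, with a median of -0.04. In the chromosome 17 cluster of 11 KRAB genes 0 passed in either direction in limma, 0 also at an unadjusted p under 0.05, at a median of -0.09. *Zfp990* was at 20.4, 24.3 and 25.1 FPKM in control and 6.14, 12.1 and 5.39 in H3.3-KD (log2 fold change -1.52 ± 0.34 (SE), adjusted p = 0.00755), and *Zfp534* at 32.2, 19.9 and 24.5 and 7.83, 13.1 and 5.11 (log2 fold change -1.51 ± 0.41 (SE), adjusted p = 0.0175). *Zfp980*, *Zfp987*, *Zfp600* and *Zfp981* fell as well, by 1.22, 1.31, 1.22 and 1.18 on the log2 scale. For each of these 7 genes every H3.3-KD library was below every control library, as it was for 18.9% of all genes tested.

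The remaining 6 genes of the cluster did not pass. *Zfp989* and *Zfp988* had no overlap between the groups, with log2 fold changes of -1.23 and -0.68, whereas *Zfp978*, *Zfp979*, *Zfp982* and *Zfp984* overlapped. *Zfp982* was at 17.5, 19.0 and 20.2 FPKM in control and 12.5, 35.6 and 8.15 in H3.3-KD, the smallest difference of the 13 (log2 fold change -0.27). Its first listed promoter lacks the shared word, but another of its starts holds it. *Zfp979*, *Zfp984* and *Zfp988*, which did not pass either, hold the word as well. Whether the word has a part in the falls was not tested. *Rex2* and *Gm13212*, which also carry it, are no members of the Zfp list and were chosen here after their values were seen. *Rex2* was at 41.9, 26.9 and 27.1 FPKM in control and 10.2, 16.4 and 6.22 in H3.3-KD (adjusted p = 0.0143), and *Gm13212* at 66.5, 79.2 and 48.0 and 21.5, 18.1 and 9.74 (adjusted p = 0.00135). Both were wholly below control.

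Several of these transcripts share reads. Between 1.63% and 77.9% of the stretches of 100 bases in the 13 transcripts occurred in another gene. *Zfp985* and *Zfp990*, with 1.92% and 1.63%, were the most separable of the 7 that fell, while *Zfp987*, *Zfp600*, *Zfp980* and *Zfp534* had 77.9%, 68.5%, 46.1% and 40.8% in common, so how the fall divides among these 4 is uncertain. The number of falls in the cluster depended on single libraries. It was 2 without H3.3-KD replicate 3, 2 without control replicate 1 and 3 without control replicate 3. Leaving out either control replicate 2 or H3.3-KD replicate 1 gave 4. With no filter it was 3, and with a pseudocount of 0.1 it was 4. The cluster held 2 of 5 KRAB falls without H3.3-KD replicate 3 or without control replicate 1, and 3 of 6 with no filter, so not most of them there. The cluster's median stayed between -0.82 and -1.49 when any library was left out. With the GC and length trend removed 5 genes fell, at a median of -1.10.

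**Figure D2:**
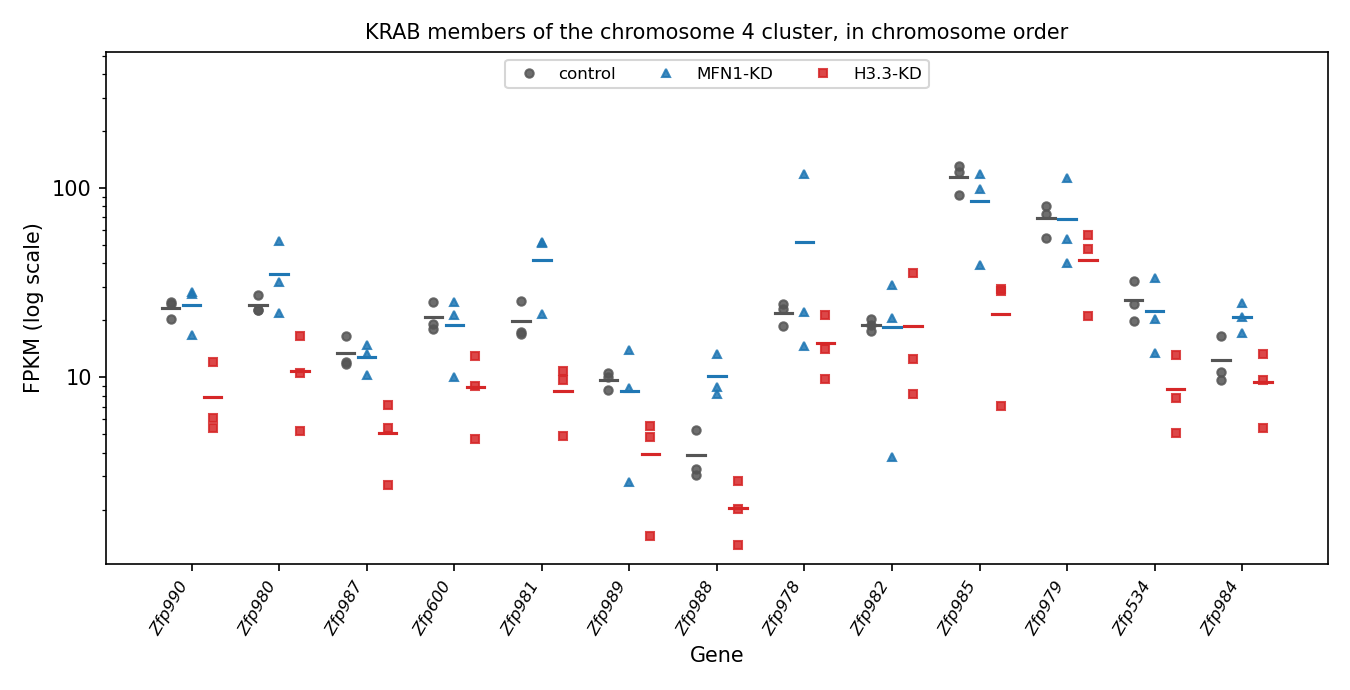
FPKM (y axis, log scale) of the 13 KRAB members of the chromosome 4 cluster in their order along the chromosome, 1 mark per library and a bar at the mean of 3. H3.3-KD squares lie below all control circles in 9 of the 13 genes, against 18.9% of all genes tested, and *Zfp982* shows overlapping groups.

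Other KRAB members rose or did not pass. The 4 KRAB members that rose in H3.3-KD were *Zfp707*, *Zfp791*, *Zfp7* and *Zfp977*, with log2 fold changes of 2.26, 2.06, 1.65 and 1.43. Of these, 1 had a control mean under 5 FPKM and met the rule through a knockdown. *Zfp791* was at 5.67, 3.15 and 6.30 FPKM in control and 29.3, 21.5 and 20.6 in H3.3-KD. Of 5 KRAB silencers with known targets, 4 were members. *Zfp932*, which silences endogenous retroviruses, was at 108, 158 and 141 FPKM in control and 81.3, 54.3 and 45.1 in H3.3-KD (log2 fold change -1.18 ± 0.30 (SE), adjusted p = 0.0131). It was the only one of the 4 to pass, and 22.1% of its stretches occurred in another gene.

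The other 3 silencers had no call in either knockdown. *Zfp809*, which represses murine leukaemia viruses through their primer binding site, was at 31.1, 15.9 and 16.7 FPKM in control, 11.1, 14.8 and 12.4 in H3.3-KD and 23.1, 19.1 and 30.8 in MFN1-KD (adjusted p = 0.16 and 0.718). *Zfp568*, a repressor of a placental *Igf2* promoter, was at 55.5, 36.5 and 35.4, 52.8, 50.2 and 31.7 and 46.4, 43.4 and 20.7 FPKM in the same order. *Zfp445*, a guardian of genomic imprints, was at 10.3, 7.85 and 5.60, 10.1, 8.98 and 5.22 and 12.7, 14.2 and 21.3 FPKM, and its MFN1-KD libraries lay above the controls without passing (log2 fold change 0.94, adjusted p = 0.15).

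Among the 14 members with known roles in transcription and chromatin, 4 rose and 0 fell in H3.3-KD by limma (6 and 1 at an unadjusted p under 0.05), near the 21.8% and 9.12% of all genes. *Zfp296*, a factor of embryonic stem cells that binds the NuRD complex, was at 72.2, 60.3 and 56.6 FPKM in control and 268, 184 and 464 in H3.3-KD (log2 fold change 2.16 ± 0.36 (SE), adjusted p = 0.00166). *Zfp143* and *Zfp384* rose with it, by log2 fold changes of 0.70 and 2.04, as did *Zfp219*. *Zfp384*, like *Zfp219*, was under 5 FPKM in control, at 2.15 on average. The count of 4 rises includes both, which met the rule through a knockdown, and so depends on the choice of members. The rise of *Zfp296* did not pass with the GC and length trend removed (log2 fold change 1.18, adjusted p = 0.0765), and that of *Zfp143* passed neither there nor under median ratios. *Zfp644*, which brings the histone methyltransferases G9a and GLP to DNA, was at 121, 90.9 and 92.7 FPKM in control and 35.4, 36.5 and 70.4 in H3.3-KD. Its groups did not overlap, but it did not pass (log2 fold change -1.14, adjusted p = 0.0833). Over the alternatives its adjusted p ran from 0.00203 with library weights to 0.21 without H3.3-KD replicate 2.

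Of 6 members that act on RNA and ribosomes, 3 rose (*Zfp36*, *Zfp598* and *Zfp622*) and 1 fell (*Zfp638*), beside 21.8% and 9.12% of all genes, and so few genes set no share apart from these. *Zfp598*, a ubiquitin ligase that marks collided ribosomes, was at 11.9, 7.64 and 5.28 FPKM in control and 22.9, 24.6 and 34.0 in H3.3-KD (log2 fold change 1.64 ± 0.33 (SE), adjusted p = 0.00456). With the GC and length trend removed its log2 fold change was 0.22 (adjusted p = 0.575). *Zfp593* and *Zfp106*, the former a factor for the export of the large ribosomal subunit, did not pass in H3.3-KD (adjusted p = 0.841 and 0.37).

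Of the ubiquitin and SUMO ligases besides *Zfp598*, *Zfp91* and *Zfp451* did not pass either (adjusted p = 0.469 and 0.82 in H3.3-KD). *Zfp91* is listed on 2 rows and only the higher one met the rule. *Zfp207*, which brings Bub3 to kinetochores in mitosis, was at 100.1, 103 and 104 FPKM in control and 187, 178 and 152 in H3.3-KD, without overlap and without passing (adjusted p = 0.0791). *Zfp830*, needed for the survival of early embryos, was at 7.59, 10.1 and 6.29 and 18.9, 20.7 and 27.1 FPKM (adjusted p = 0.0623).

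The members' changes in H3.3-KD went with the GC content of their transcripts. Over all genes tested, 21.8% rose and 9.12% fell. In the 40 members with the highest GC content, 46.1% to 68.7%, 20 rose and 0 fell in limma (24 and 0 at an unadjusted p under 0.05), in the 39 of the middle range 3 rose and 3 fell, and in the 40 with the lowest, 34.6% to 39.7%, 2 rose and 12 fell. The rank correlation (Spearman's rho) of log2 fold change with transcript GC content was 0.70 over the 119 members, 0.62 within the KRAB class and 0.66 outside it, beside 0.34 over 12770 genes with a GC content. These are descriptions across genes that share libraries and base composition. KRAB genes and low GC content largely coincide, since 33 of the 40 lowest were KRAB. Among these 40, 1 of 33 KRAB members rose and 10 fell, and of 7 others 1 rose and 2 fell. In the middle range 1 of 21 KRAB members passed, as a rise, and of 18 others 2 rose and 3 fell. Among the 40 highest, 2 of 7 KRAB members and 18 of 33 others rose. At the lowest GC content 30.3% of KRAB members and 28.6% of the others fell, and in the middle range 0% and 16.7%. The greater share of falls among KRAB members thus did not hold in the middle range. At the lowest it was slight, and the others there numbered only 7.

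The choice of members bears on these counts. Of the 20 rises at the highest GC content 12 were of members with a control mean under 5 FPKM, whose median GC content was 50.7%. Over the 98 members with at least 5 FPKM in control, 8 of 27 rose at the highest GC content, and 2 of 37 rose and 11 fell at the lowest, with a rho of 0.63. Over the 52 with at least 15 FPKM in MFN1-KD, 4 of 10 rose at the highest and 1 of 26 rose and 10 fell at the lowest, with a rho of 0.65. With the GC and length trend removed, the 40 highest had 9 rises and 1 fall and the 40 lowest 2 rises and 8 falls. Whether sequence composition or amplification had a part in these changes was not tested.

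**Figure D3:**
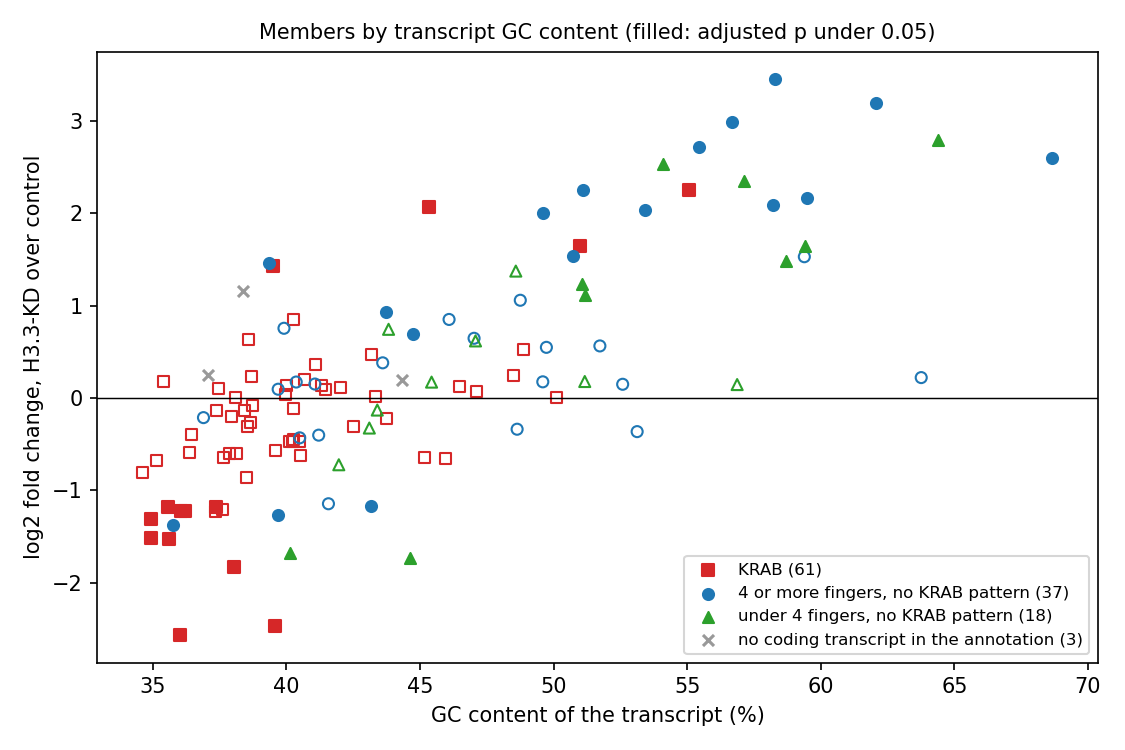
Log2 fold change in H3.3-KD over control (y axis) against transcript GC content in percent (x axis) for the 119 members, 1 mark per gene, with filled marks for adjusted p under 0.05 and crosses for genes without a coding transcript. KRAB members (squares) gather at low GC content, with 10 filled marks below 0, and the filled marks above 50% GC all lie above 0.

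In MFN1-KD against control 3 members rose and 0 fell in limma (18 and 7 at an unadjusted p under 0.05), against 1.15% and 2.2% of all genes tested. With more than 2-fold besides that unadjusted p, 10 rose and 7 fell, against 5.02% and 9.05%. The median log2 fold change of the members was 0.22, beside -0.08 over all genes, and 74 of 119 were above 0. The MFN1-KD libraries lay wholly above control for 23 members and wholly below for 6, against 11.4% and 16.8% of all genes. The choice of members bears on these counts too. Of the 10 rises, 6 were of the 21 members with a control mean under 5 FPKM, which met the rule through a knockdown. Over the 98 with at least 5 FPKM in control, 4 rose and 6 fell at that threshold, with a median of 0.11. Of these 98, 16 lay wholly above control and 4 wholly below.

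*Zfp622*, a factor for the maturation of the large ribosomal subunit, was at 156, 123 and 118 FPKM in control and 379, 420.3 and 817 in MFN1-KD (log2 fold change 1.94 ± 0.30 (SE), adjusted p = 0.0283). It also passed in H3.3-KD, at 248, 252 and 369 FPKM (log2 fold change 1.11 ± 0.30 (SE), adjusted p = 0.0187), but not under median ratios (adjusted p = 0.136) nor with the GC and length trend removed (adjusted p = 0.506). It was the only member that passed in the same direction in both knockdowns, which share their controls. *Zfp131*, a BTB-domain transcription factor, was at 240.2, 240.4 and 188 FPKM in control and 674, 444 and 1278 in MFN1-KD (log2 fold change 1.71 ± 0.35 (SE), adjusted p = 0.038). *Zfp936*, a KRAB gene, was at 105, 108 and 92.3 and 309.7, 286 and 217 FPKM (log2 fold change 1.39 ± 0.27 (SE), adjusted p = 0.0352). In all 3 genes every MFN1-KD library was above every control library, and MFN1-KD replicate 3 was the highest for *Zfp622* and *Zfp131* and the lowest of its group for *Zfp936*.

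These 3 calls were not stable. None passed when the fit held only the 6 libraries compared, when no low-value filter was used, when any control library was left out or when H3.3-KD replicate 2 was left out. Leaving out replicate 1 of H3.3-KD or of MFN1-KD left 1 call.

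Of the members below control in MFN1-KD, the one nearest to passing was *Zfp637*, at 17.9, 27.4 and 19.6 FPKM in control and 12.6, 7.09 and 3.15 in MFN1-KD (log2 fold change -1.53 ± 0.42 (SE), adjusted p = 0.0729), followed by *Zfp825*, at 21.1, 22.7 and 4.27 FPKM in MFN1-KD (log2 fold change -1.74 ± 0.52 (SE), adjusted p = 0.0872), and *Zfp428* (log2 fold change -1.05 ± 0.34 (SE), adjusted p = 0.102). None of the 3 overlapped with control. *Zfp593*, at 25.8, 41.1 and 39.9 FPKM in control and 21.9, 18.1 and 4.93 in MFN1-KD, did not overlap either and did not pass (adjusted p = 0.115). Replicate 3, the library with the fewest genes above 0, was the lowest of its group for *Zfp637*, *Zfp825* and *Zfp593*.

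**Figure D4:**
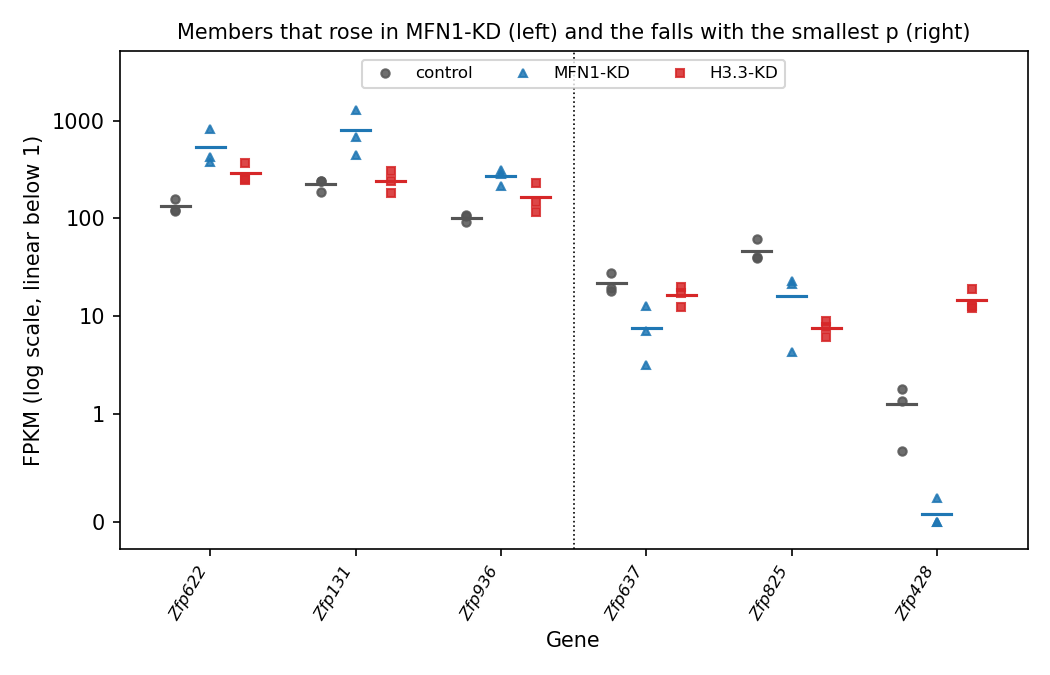
FPKM of 6 members in each library (y axis, log scale, linear below 1), with the 3 that rose in MFN1-KD left of the dotted line and the 3 falls with the smallest p, none past the threshold, right of it. MFN1-KD triangles lie above all control circles for the first 3 genes and below them for the other 3.

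The difference between the knockdowns was tested directly. 25 members were higher in H3.3-KD than in MFN1-KD and 25 were lower, against 27.6% and 11.0% of all genes tested. The choice of members bears on both counts, since 10 members reached 5 FPKM in H3.3-KD alone and 6 in MFN1-KD alone. Of the 21 members with a control mean under 5 FPKM, 10 were higher and 5 lower. Over the 98 with at least 5 FPKM in control, 15 were higher and 20 lower. Median-ratio scaling gave 18 and 38, upper-quartile scaling 16 and 42, and removal of the GC and length trend 10 and 15. Without H3.3-KD replicate 1, 16 were lower. By an unadjusted p under 0.05 and more than 2-fold 28 were higher and 24 lower, against 29.1% and 11.0%, and 31 lay wholly above and 32 wholly below MFN1-KD, against 33.1% and 14.8%. Of the 61 KRAB members 4 were higher and 15 lower. In the chromosome 4 cluster 8 of 13 were lower and 0 higher in limma (9 and 0 at an unadjusted p under 0.05). The cluster's median log2 fold change of MFN1-KD over control was -0.07. With the GC and length trend removed, 2 of the 13 were lower, and the median of MFN1-KD over control was -0.58. Without MFN1-KD replicate 1, 4 were lower. *Zfp985* was at 118, 98.9 and 39.0 FPKM in MFN1-KD, and *Zfp981* at 52.1, 21.6 and 51.0. *Gm13212*, with the same promoter word, was at 125, 121 and 109 FPKM in MFN1-KD and differed most among the genes that hold it (log2 fold change of H3.3-KD over MFN1-KD -2.84, adjusted p = 0.000131).

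Zfp genes with lower expression and other families with C2H2 fingers gave a reference. Of 108 Zfp genes with a mean of 1 to under 5 FPKM, 15 rose and 0 fell in H3.3-KD by limma (26 and 2 at an unadjusted p under 0.05), of 12 Zbtb genes with at least 5 FPKM 3 rose and 2 fell, and of 4 Zscan and Zkscan genes 1 rose and 0 fell (1 and 0 unadjusted). Their median log2 fold changes were 0.32, 0.76 and 0.79. Over all genes tested 21.8% rose and 9.12% fell, at a median of 0.26. Whether these families differ from the members was not tested.

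The partners through which KRAB proteins silence DNA were given by a list of 25 genes, of which 24 were tested. In H3.3-KD 2 rose (*Hdac1* and *Hdac2*, histone deacetylases) and 3 fell (*Cbx3*, *Trim33* and *Smarcad1*), beside 21.8% and 9.12% of all genes. The median log2 fold change was 0.24, near that of all genes. *Cbx3*, which encodes the heterochromatin protein HP1 gamma, was at 1363, 1214 and 1628 FPKM in control and 276, 244 and 343 in H3.3-KD (log2 fold change -2.28 ± 0.19 (SE), adjusted p = 5.48e-05). *Trim33*, a relative of *Trim28*, was at 82.6, 61.1 and 48.0 and 18.1, 18.7 and 30.4 FPKM (log2 fold change -1.48 ± 0.28 (SE), adjusted p = 0.00346). The fall of *Smarcad1*, a chromatin remodeller, was the weakest of the 5 (log2 fold change -0.93 ± 0.27 (SE), adjusted p = 0.0263) and did not pass with the GC and length trend removed.

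*Hdac1* was at 84.3, 78.8 and 69.8 FPKM in control, 281, 304 and 221 in H3.3-KD and 33.7, 34.0 and 44.9 in MFN1-KD, and it was the only gene of the list that passed in MFN1-KD, where it fell (log2 fold change -1.04 ± 0.22 (SE), adjusted p = 0.0404). That fall did not pass under median ratios (adjusted p = 0.0565) nor with the GC and length trend removed (adjusted p = 0.135). *Trim28* itself, the shared corepressor, was at 523, 459 and 328 FPKM in control, 557, 510.4 and 646 in H3.3-KD and 666, 754 and 649 in MFN1-KD. It passed in neither (adjusted p = 0.165 and 0.0919), with a log2 fold change of 0.41 in H3.3-KD. With the GC and length trend removed, that value changed sign to -1.04 and passed as a fall (adjusted p = 0.00321). *Setdb1*, which methylates histone H3 at lysine 9, was at 11.4, 6.71 and 7.63, 8.75, 10.5 and 17.8 and 8.12, 10.9 and 16.1 FPKM in the same order, with overlapping ranges.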

How the data were processed

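RNA of 9 pools of 8-cell embryos (3 control, 3 MFN1-KD, 3 H3.3-KD) was amplified by Smart-Seq2 from oligo-dT and sequenced. By the study's methods and the submitters' processing notes, reads were trimmed with cutadapt 1.16 and mapped to mm10 with STAR. The authors deposited FPKM to 2 decimals per gene symbol, and the program and annotation behind FPKM are not given in the sources used here. Steps between low FPKM values corresponded to an estimated 14800000 to 19700000 fragments per library. Counts were not used, so no counting interval is given.

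Genes that averaged at least 1 FPKM (13011) were fitted as log2(FPKM + 1) in limma 3.58.1 (R 4.3.3, trend and robust options, all 9 libraries, no covariate), and p-values were adjusted over all of them by Benjamini-Hochberg. Fold changes are on this scale, which understates changes of low genes. The script was tested on simulated data. The members and gene lists were chosen with earlier results of these data known. Named were the 8 largest rises and falls past the threshold in each knockdown (or the 3 smallest p where none passed), the 8 highest in control, the 3 on each side of 5 FPKM, up to 4 per role list by mean FPKM, up to 8 corepressors by p, the member with the smallest p against the median's direction and the targeted genes. Others are named for the cluster, class or role list they belong to. Positions came from the gene entries of GENCODE M21 (GRCm38), and GC content from its whole transcripts. The finger and KRAB patterns were searched in its translated coding sequences, since a protein table was not used here. The KRAB pattern as planned found 50 members, and allowing tyrosine at its first position, chosen after seeing that it missed known KRAB genes, found 61. Members were also split by their mean in control (5 FPKM) and in MFN1-KD (15 FPKM). Promoters came from RefSeq. As alternatives, libraries were scaled by median ratios or by upper quartiles, the filter was dropped or set at 5 FPKM, the pseudocount was set to 0.1, and the fit was repeated with only the 6 libraries compared, with a replicate block, after removal of GC and length trends (splines with 5 degrees of freedom), with library weights and without each library in turn.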

Additional observations from a re-analysis of the deposited data

Results flagged for a closer look

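H3.3-KD was tested directly against MFN1-KD in limma at an adjusted p under 0.05. Among the members 25 (21.0%) were higher in H3.3-KD and 25 (21.0%) were lower, against 27.6% and 11.0% of all genes tested. Over the 98 members with at least 5 FPKM in control, 15 were higher and 20 lower. *Zfp428*, *Zfp219*, *Zfp710*, *Zfp771* and *Zfp574*, listed next, reached 5 FPKM through H3.3-KD. A higher value there was built into the choice of these 5, and theirs are a description. Of the named members, 13 were higher in H3.3-KD, and their log2 fold changes of H3.3-KD over MFN1-KD were *Zfp428* (3.84), *Zfp219* (3.62), *Zfp710* (2.97), *Zfp771* (2.92), *Zfp821* (2.91), *Zfp574* (2.84), *Zfp36* (2.73), *Zfp775* (2.41), *Zfp830* (2.41), *Zfp296* (2.22), *Zfp593* (1.53), *Zfp598* (1.24) and *Zfp637* (1.17). The 13 named members that were lower had log2 fold changes of *Zfp638* (-2.50), *Zfp367* (-2.43), *Zfp345* (-2.26), *Zfp985* (-2.01), *Zfp950* (-1.85), *Zfp644* (-1.69), *Zfp131* (-1.61), *Zfp990* (-1.55), *Zfp932* (-1.37), *Zfp534* (-1.27), *Zfp451* (-1.20), *Zfp91* (-0.93) and *Zfp936* (-0.76). The means of *Zfp638*, *Zfp367* and *Zfp345* lay below the control mean in H3.3-KD, where each fell, and above it in MFN1-KD, where none of the 3 passed. What lies behind these differences was not tested. Groups of 3 libraries were not searched for outlying samples.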

How the results depend on the processing

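Numbers of members past the threshold in limma changed by over 1.5 times in these cases. For H3.3-KD against control, 25 members rose (17 to 29 when 1 library was left out) and 14 rose with the GC and length trend removed. 15 fell (8 to 18 when 1 library was left out), 23 with upper-quartile scaling and 9 with no filter. For MFN1-KD against control, 3 rose (0 to 3 when 1 library was left out), 0 with no filter, 0 with only the 6 libraries compared, 1 with the GC and length trend removed and 8 with library weights. None fell (0 to 1 when 1 library was left out), 1 with a pseudocount of 0.1 and 3 with library weights. For H3.3-KD against MFN1-KD, 25 were higher (21 to 27 when 1 library was left out), 16 with upper-quartile scaling and 10 with the GC and length trend removed. 25 were lower (16 to 28 when 1 library was left out), 38 with median-ratio scaling, 42 with upper-quartile scaling, 14 with no filter and 15 with the GC and length trend removed. The members' median log2 fold change minus that of all genes was -0.15 in H3.3-KD (-0.23 to -0.085 when 1 library was left out), -0.21 with upper-quartile scaling, 0.071 with no filter and 0.00049 with the GC and length trend removed, and in MFN1-KD it was 0.30 and 0.022 with that trend removed. The cause of each change was not tested. A replicate block left 1 member risen in MFN1-KD in place of 3, and 23 in place of 25 in H3.3-KD. Libraries with the same number correlated at -0.05 to 0.16 in their deviations from the group means, so the numbers were not taken as pairs.

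Of the values of named genes, 31 passed the threshold and 37 did not. No value that passed in the fit reported changed sign in any of the alternatives above, but 61 of the recomputed values no longer passed while 497 did. Of the 37 that did not pass, 11 changed sign in at least 1 alternative, and 30 of their recomputed values passed. *Mfn1* passed only narrowly (adjusted p = 0.0431, 0.0244 to 0.158 over the alternatives). With 3 pools per group, 2 decimals of FPKM and no counts, low members and small differences could not be resolved, and near copies could trade reads.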
